A study of Mus musculus with 12 samples.

Results

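Of 81995 open-chromatin regions measured in NIH/3T3 cells, 1489 (1.82%) were lost in both lines that carry a premature stop codon in Actg1 and were kept in the line that lacks the whole Actg1 locus. These regions were chosen by their measured values. The mean normalized read count had to be 50 or more in wild-type cells (WT) and in the locus deletion (LD), and the lower of these 2 means had to be at least 2 times the higher of the means of the 2 premature stop lines (PTC1 and PTC2). Of the 54317 regions with WT and LD means of 50 or more, 2.74% met the rule. The levels that chose the members are therefore given as a description and carry no test.

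The study asked how destabilization of an RNA leads to transcriptional adaptation. Accessibility was measured by ATAC-seq in 12 libraries of 25000 cells each from NIH/3T3, an immortal mouse embryonic fibroblast line, with 3 libraries per group. WT cells have an intact Actg1, the gene of cytoplasmic gamma-actin. PTC1 cells carry an insertion of 1 nt after position 280 of the coding sequence, on 1 allele together with a change of the base before it, and the stop codon falls in exon 3. PTC2 cells carry an insertion of 4036 nt after position 1096 of the mRNA, and the stop codon falls in exon 5. LD cells have a deletion of the full Actg1 locus. The labels name no treatment. The labels name no second clone of any allele, so each mutant was read as 1 line, and every p-value measures the spread between libraries of a line. A difference made by an allele and one present in the cell that founded the line cannot be told apart in this design.

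In ATAC-seq the transposase Tn5 cuts and tags DNA that is not wrapped tightly in nucleosomes, so the read count of a region rises with its accessibility. In a library of many cells, a site open in fewer cells and a site less open in each cell cannot be told apart. Active promoters sit just upstream of the start sites of genes, and enhancers are open sites, often far from genes or inside introns, that bind transcription factors and raise the output of a gene. An mRNA with a premature stop codon is degraded by nonsense-mediated decay, and in transcriptional adaptation such decay is followed by higher transcription of related genes, which a cell without the mRNA does not show.

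Promoters that carried the largest losses are shown first, as the 300 bases from 250 before to 50 after the start site in RefSeq (build GRCm38.p6, the same assembly as mm10), read 5′ to 3′ on the strand of the gene. The first 6 belong to the members of highest ratio that the table lists with the gene by a standard symbol and that cover at least 200 bases of its promoter. The promoters of the long non-coding genes Gm11228 and Mir99ahg, which also lay in members of ratios within this range, are not shown, since their members were not listed with a gene of a standard symbol. The last 2, Mmp10 and Mmp13, were chosen after their values were seen, because both lie in 1 cluster of members. The windows are Mga at chr2:119896978-119897277 (+), Pcdh9 at chr14:93890620-93890919 (-), Gda at chr19:21472612-21472911 (-), Zfp518b at chr5:38684777-38685076 (-), Pcdh7 at chr5:57717831-57718130 (+), Sh3bgrl2 at chr9:83548088-83548387 (+), Mmp10 at chr9:7502092-7502391 (+) and Mmp13 at chr9:7272264-7272563 (+). Capitals mark matches to the searched motifs, on either strand.
Mga: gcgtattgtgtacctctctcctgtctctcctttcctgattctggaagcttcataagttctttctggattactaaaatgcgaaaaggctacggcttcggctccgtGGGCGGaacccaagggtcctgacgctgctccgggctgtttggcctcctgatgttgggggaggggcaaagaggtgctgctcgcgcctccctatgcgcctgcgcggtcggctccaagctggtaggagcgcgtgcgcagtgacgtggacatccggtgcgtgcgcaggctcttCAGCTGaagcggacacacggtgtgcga
Pcdh9: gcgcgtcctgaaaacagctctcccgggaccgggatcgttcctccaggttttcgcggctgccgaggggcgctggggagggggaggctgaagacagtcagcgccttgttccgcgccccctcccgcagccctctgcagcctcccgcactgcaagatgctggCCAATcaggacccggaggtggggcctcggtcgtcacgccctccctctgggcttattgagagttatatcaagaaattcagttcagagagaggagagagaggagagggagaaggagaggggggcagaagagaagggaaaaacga
Gda: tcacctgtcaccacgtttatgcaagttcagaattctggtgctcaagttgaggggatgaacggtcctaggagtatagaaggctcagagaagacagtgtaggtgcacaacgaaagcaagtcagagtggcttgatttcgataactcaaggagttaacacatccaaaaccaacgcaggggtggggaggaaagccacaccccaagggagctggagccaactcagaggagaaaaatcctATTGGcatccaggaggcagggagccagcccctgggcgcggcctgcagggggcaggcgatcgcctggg
Zfp518b: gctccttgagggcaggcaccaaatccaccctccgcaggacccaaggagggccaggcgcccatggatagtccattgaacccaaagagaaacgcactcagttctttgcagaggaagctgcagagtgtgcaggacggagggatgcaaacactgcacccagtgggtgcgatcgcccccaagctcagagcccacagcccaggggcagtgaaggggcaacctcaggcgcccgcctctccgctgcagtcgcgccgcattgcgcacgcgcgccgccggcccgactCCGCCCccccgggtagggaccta
Pcdh7: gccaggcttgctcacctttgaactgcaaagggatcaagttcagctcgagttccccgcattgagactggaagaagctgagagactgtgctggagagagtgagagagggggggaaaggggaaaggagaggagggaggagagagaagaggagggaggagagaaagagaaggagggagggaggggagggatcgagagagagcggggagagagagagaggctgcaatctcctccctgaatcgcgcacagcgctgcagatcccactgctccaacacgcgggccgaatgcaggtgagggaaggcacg
Sh3bgrl2: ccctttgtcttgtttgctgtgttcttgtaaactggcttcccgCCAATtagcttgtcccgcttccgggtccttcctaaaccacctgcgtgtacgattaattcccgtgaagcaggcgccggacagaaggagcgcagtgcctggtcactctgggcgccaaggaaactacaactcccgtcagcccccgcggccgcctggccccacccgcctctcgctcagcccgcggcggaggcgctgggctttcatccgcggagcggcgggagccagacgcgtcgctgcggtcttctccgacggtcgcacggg
Mmp10: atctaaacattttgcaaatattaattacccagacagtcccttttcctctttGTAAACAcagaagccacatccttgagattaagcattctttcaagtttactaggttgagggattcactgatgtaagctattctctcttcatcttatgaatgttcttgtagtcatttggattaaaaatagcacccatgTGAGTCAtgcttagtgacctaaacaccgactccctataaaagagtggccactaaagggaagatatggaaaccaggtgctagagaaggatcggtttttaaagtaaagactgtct
Mmp13: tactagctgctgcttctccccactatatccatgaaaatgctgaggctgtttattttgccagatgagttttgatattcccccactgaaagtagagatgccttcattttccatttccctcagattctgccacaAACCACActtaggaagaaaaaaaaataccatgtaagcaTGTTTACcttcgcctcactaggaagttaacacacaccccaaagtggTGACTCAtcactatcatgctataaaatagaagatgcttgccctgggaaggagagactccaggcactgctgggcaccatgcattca

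The capitals in Mga are a GC box (GGGCGG, the site of SP and KLF factors) and an E-box (CAGCTG, a site of basic helix-loop-helix factors). Pcdh9, Gda and Sh3bgrl2 each hold a CCAAT box (CCAAT, the site of NF-Y), and Zfp518b holds a GC box. The window of Pcdh7 held none of the 13 motifs searched. Mmp10 and Mmp13 each hold an AP-1 site (TGANTCA, bound by FOS and JUN dimers) and a FOX site (TGTTTAC), and Mmp13 also holds a RUNX site (TGTGGTT). A match is a stretch of letters and was not tested for binding.

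Mga encodes a large scaffold protein that pairs with MAX and belongs to the Polycomb complex PRC1.6, which represses germline and MYC-type target genes. The member at its start site, chr2:119896863-119897673, lies in the first part of the gene and its centre is 40 bp from the listed start. WT libraries gave 519, 457 and 457 normalized read counts, and LD libraries gave 506, 514 and 463. PTC1 libraries gave 18, 16 and 11, and PTC2 libraries gave 12, 10 and 0. The promoter was thus nearly closed in all 6 premature stop libraries and at full level in all 6 others, with a ratio of 31.8 between the lower of the WT and LD means and the higher premature stop mean. It was the largest ratio of any member with a named gene. Between the premature stop lines the region was higher in PTC1 by 1.59 on the log2 scale (SE 0.483, limma, adjusted p = 0.00526). Without PTC2 replicate 3, the library at 0, that difference was 0.39 and not called (adjusted p = 0.0875), and with a pseudocount of 10 in place of 1 it was 0.60. A second member inside Mga, chr2:119898193-119898613, gave 175, 154 and 165 in WT, 173, 158 and 153 in LD, 67, 49 and 46 in PTC1 and 6, 15 and 19 in PTC2. This downstream site kept more of its level in PTC1 than in PTC2, with a log2 difference of 2.05 (adjusted p = 4.2e-08). Regions within 1000000 bp of Mga that are no members moved little, with median log2 differences from WT of 0.12 in LD, -0.20 in PTC1 and -0.13 in PTC2.

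Pcdh9 encodes a protocadherin, a calcium-dependent adhesion molecule of the cadherin family best known from neurons. Its start-site member, chr14:93889940-93891404, gave 671, 615 and 580 in WT and 1048, 880 and 1043 in LD. The same region gave 44, 37 and 19 in PTC1 and 16, 19 and 16 in PTC2. All premature stop libraries lay far below all others, and LD lay above WT, by 0.67 on the log2 scale (adjusted p = 0.00479). The other regions around Pcdh9 moved with it. Their median log2 difference from WT was -2.19 in PTC1, -3.36 in PTC2 and 0.87 in LD, and their part in the loss at the promoter was not tested.

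Gda encodes guanine deaminase, the enzyme that converts guanine to xanthine. Its start-site member, chr19:21472269-21472974, gave 427, 448 and 460 in WT, 315, 314 and 342 in LD, 23, 32 and 10 in PTC1 and 24, 27 and 16 in PTC2. The premature stop lines did not separate at this site (log2 difference -0.15, 95% interval -0.66 to 0.36, adjusted p = 0.617). All 4 regions inside the RefSeq gene were members. With 1 region upstream they formed a stretch of 5 members among 5 regions, so every region of the table between the ends of that stretch was lost in both lines.

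Pcdh7, a protocadherin like Pcdh9, held 4 members in a row with no other region between them. Its promoter, chr5:57717104-57718579, gave 483, 533 and 514 in WT and 596, 580 and 579 in LD, against 59, 61 and 54 in PTC1 and 24, 16 and 22 in PTC2. Here the 2 premature stop lines differed, with PTC1 higher by 1.46 on the log2 scale (adjusted p = 4.93e-10). The surroundings of Pcdh7 also fell in PTC2 (median log2 difference of non-member regions -2.66) but not to that degree in PTC1 (-0.18).

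**Figure D1:**
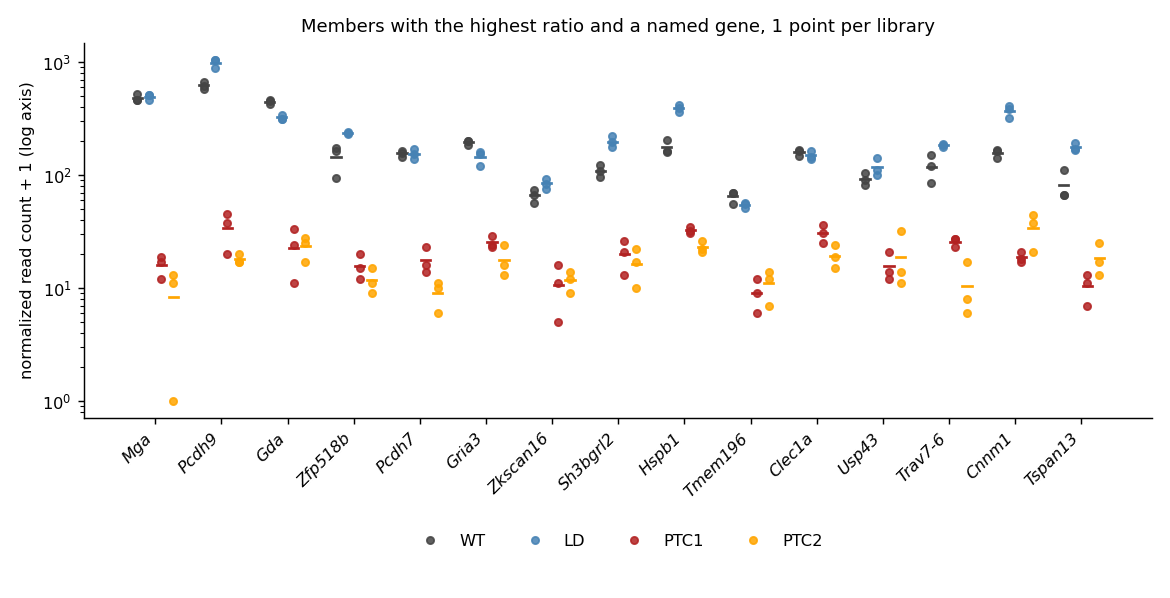
Normalized read count plus 1 (log axis) in each of the 12 libraries (points) and group means (short lines) for the 15 members of highest ratio that are listed with a named gene. The PTC1 and PTC2 points lie below every WT and LD point of the same gene, which was required of these 15, and Mga shows the widest gap.

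Among the 15 members of highest ratio with a named gene, 14 are listed with protein-coding genes and 9 are centred within 1000 bp of a start site. Zfp518b, a zinc finger protein gene, had WT values of 94, 172 and 163 and LD values of 229, 235 and 242, against 19, 11 and 14 in PTC1 and 8, 10 and 14 in PTC2. Hspb1 encodes the small heat shock protein HSP27, which binds and stabilizes actin filaments. Its promoter region, chr5:135887579-135888357, gave 160, 162 and 203 in WT, 30, 31 and 34 in PTC1, 21, 25 and 20 in PTC2 and 392, 414 and 364 in LD. The Hspb1 promoter was therefore low in both premature stop lines and above WT in the deletion line, by 1.16 on the log2 scale (SE 0.170, adjusted p = 2.03e-06). Sh3bgrl2 showed the same order, with 95, 107 and 121 in WT, 25, 12 and 20 in PTC1, 16, 9 and 21 in PTC2 and 195, 175 and 219 in LD. The remaining members of the 15 were at Gria3 (an AMPA-type glutamate receptor subunit), Zkscan16 (a zinc finger protein), Tmem196, Clec1a (a C-type lectin), Usp43 (a ubiquitin protease), the T cell receptor segment Trav7-6, Cnnm1 (a member of the magnesium transporter family CNNM) and Tspan13 (a tetraspanin). Their ratios ran from 4.62 at Tspan13 to 6.09 at Zkscan16. The deletion line was called above WT at 6 of the 15 and below it at 0, where 24.4% and 11.3% of all members and 22.6% and 24.7% of all regions were called above and below.

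The largest ratios of all were not at genes. At chr4:70914543-70915026 the WT libraries gave 257, 247 and 253 and the LD libraries 308, 286 and 297, while PTC1 gave 1, 8 and 1 and PTC2 gave 5, 0 and 1. The ratio of 75.7 at this site was the highest of the 1489 members. A member nearby, chr4:70903937-70904738, gave 458, 446 and 497 in WT, 487, 453 and 446 in LD, 11, 4 and 8 in PTC1 and 2, 7 and 0 in PTC2. The nearest RefSeq protein-coding gene is Megf9, 379856 and 369409 bp away. Between 70.8 and 71.3 Mb of chromosome 4 the table holds 8 regions, and all 5 of them with WT and LD means of 50 or more were members. The highest premature stop mean among those 5 was 9.67. The 3 weaker regions there had medians of 31 in WT, 39 in LD, 1 in PTC1 and 1 in PTC2. Near-empty members of this kind were few, since both premature stop means were under 10 in 21 members and under 20 in 153. These sites were chosen after their values were seen.

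Across all members the loss was mostly partial. The ratio of the lower of the WT and LD means to the higher premature stop mean had a median of 2.52, with quartiles of 2.20 and 3.20. It was 3 or more in 467 members, 5 or more in 115 and 10 or more in 25. The median member had a mean of 150.7 in WT, 171 in LD, 37.3 in PTC1 and 41 in PTC2. In 1488 of the members all 6 premature stop libraries lay below all 6 WT and LD libraries, an order that the rule favours and that 9.67% of all regions showed. The exception, chr12:57490534-57490828, gave 57, 79 and 75 in WT, 33, 68 and 57 in LD, 13, 38 and 22 in PTC1 and 6, 16 and 8 in PTC2. Just inside the threshold lay chr3:85377870-85378201, with 62, 109 and 81 in WT, 145, 135 and 120 in LD, 43, 47 and 36 in PTC1 and 32, 41 and 30 in PTC2. The 2 next members at a ratio of 2.00 were chr9:51397554-51398163 and chr9:114011298-114011523 in Fbxl2, an F-box protein gene. Just outside lay chr4:56668517-56669347, with 385, 321 and 376 in WT, 168, 216 and 197 in LD, 92, 106 and 93 in PTC1 and 90, 96 and 87 in PTC2. The next regions outside were chr1:17375497-17376178 and chr3:116651861-116652458 in Mfsd14a.

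**Figure D2:**
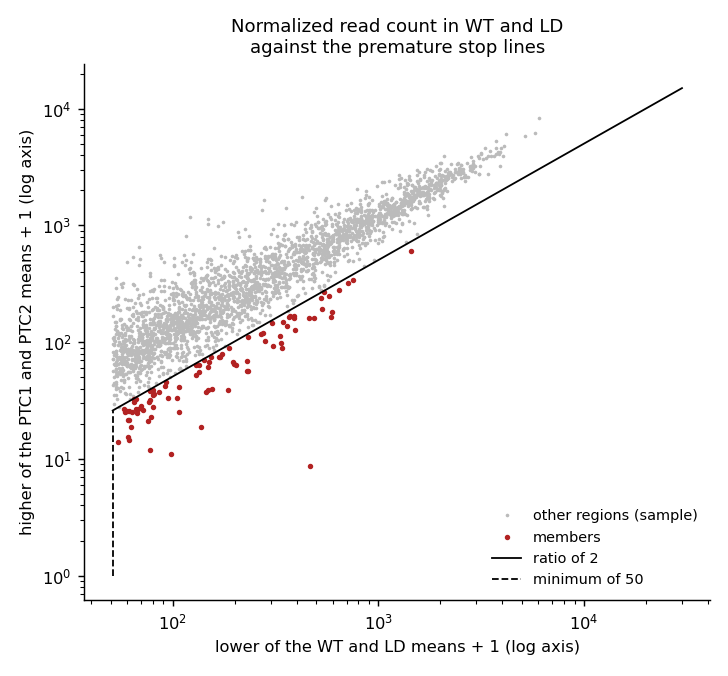
Lower of the WT and LD means (horizontal) against the higher of the PTC1 and PTC2 means (vertical), each plus 1 on log axes, for a thinned sample of regions. Red points are members, below the line of ratio 2 and right of the minimum of 50. Most members lie close to that line, and few reach a ratio of 10 or more.

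Of the 6 strongest members 5 lay away from a start site. The highest means in WT and LD were at chr8:27106595-27108346, inside Adgra2, an adhesion receptor gene also known as Gpr124. That region gave 2772, 2761 and 2538 in WT, 2492, 2546 and 2385 in LD, 255, 232 and 213 in PTC1 and 1123, 1153 and 1012 in PTC2. Most of the wild-type level was gone in PTC1 and a larger remainder was left in PTC2, with a log2 difference between them of -2.23 (95% interval -2.37 to -2.08, adjusted p = 3.36e-21). At chr8:40089280-40090483, which is 189284 bp from Fgf20, the values were 2137, 1933 and 1874 in WT, 1901, 1776 and 1765 in LD, 241, 245 and 184 in PTC1 and 836, 797 and 780 in PTC2. The next in order were chr2:130875692-130876984, the start site of Tcim, chr2:124855869-124856631 and chr19:41857081-41858180 near Rrp12. Tcim encodes a small regulator of WNT signalling and was the strongest member at a start site. It gave 1616, 1411 and 1435 in WT, 1483, 1316 and 1528 in LD, 545, 522 and 528 in PTC1 and 714, 537 and 573 in PTC2.

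The same rule was applied to each pair of replicate numbers and read in the libraries left out. Of the 1508 regions chosen without replicate 1, 1500 had both premature stop values below the WT and LD values in replicate 1 and 1078 (71.5%) were at least 2-fold lower. The figures were 1591 and 1072 (66.8%) of 1604 for replicate 2, and 1494 and 1115 (74.2%) of 1502 for replicate 3. Over all regions the 2-fold criterion was met in 2.59% to 2.91%. All regions include those under the minimum that the rule sets on the WT and LD means, so this share is not matched to the chosen regions. No share over all regions is given for the order alone, so the counts of 1500, 1591 and 1494 have no background here. The libraries left out come from the same lines, so this reads the libraries and not the alleles.

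The rule applied to other pairs of lines gave 99 regions low in PTC1 and LD only and 848 low in PTC2 and LD only. In the opposite direction 755 regions were high in PTC1 and PTC2 only, 195 in PTC1 and LD only and 404 in PTC2 and LD only. The pair of premature stop lines had the highest count in both directions.

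Most members lay away from start sites. A gene within reach of the deposited annotation was listed for 262 members (17.6%), against 30.5% of all regions and 36.6% of those with WT and LD means of 50 or more. The centre lay within 1000 bp of a listed start in 86 members (5.78%), against 15.2% and 20.4%. Of the 262 listed members, 126 (48.1%) were listed with a protein-coding gene, 53 with a processed pseudogene and 24 with a long intergenic RNA. The share inside a RefSeq protein-coding gene body differed less, 49.9% of members against 52.8% of all regions. Median width was 541 bp in members and 522 bp in all regions.

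Strong start-site members other than those described were Cacna2d3, Sfta2, Riox1, Mmp13, Trav6-7-dv9 and 3 non-coding genes. Riox1 encodes a nuclear oxygenase that modifies a ribosomal protein and histones. Its region, chr12:83950102-83951140, gave 440, 525 and 523 in WT, 616, 650 and 605 in LD, 162, 180 and 177 in PTC1 and 229, 228 and 200 in PTC2. Sfta2, a gene for a surfactant-associated protein, gave 653, 709 and 653 in WT, 533, 544 and 554 in LD, 159, 159 and 174 in PTC1 and 200, 200 and 177 in PTC2. The premature stop libraries lay below all WT and LD libraries at these genes, an order that the rule favours. It was seen in 1488 of the 1489 members and in 9.67% of all regions.

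In RefSeq 51 promoter windows of 49 genes lay at least 200 bases inside a member. Their median GC content was 60%, against 62.3% in the 11873 windows inside any region of the table and 52.7% in all 32817 windows. They held a median of 12 CpG dinucleotides, against 22 and 7. The AP-1 motif TGANTCA was present in 11 of the 51 (21.6%), against 6.07% of windows in any region and 7.81% of all windows. Among the genes of those windows are Mmp10, Mmp13, Rgs12, Rgs17, C3ar1, Cysrt1, Sdcbp2 and Atp13a4. The FOX motif TGTTTAC was in 9.80%, 2.38% and 3.65% in the same order. The ETS motif CCGGAAGT was in 0 of the 51, against 8.68% and 3.89%, and the MYC-MAX E-box CACGTG in 1.96%, against 10.5% and 7.15%. The GC box GGGCGG was in 52.9%, against 67.3% and 35.6%, and the CCAAT box in 35.3%, against 38.2% and 37.4%. The E-box CAGCTG was in 13.7%, 14.7% and 16.3%, the RUNX motif in 5.88%, 3.49% and 5.27%, and the TEAD motif GGAATG in 15.7%, 11.9% and 14.7%. The CRE motif TGACGTCA was in 1 of the 51 (1.96%), against 3.39% and 1.79%, and the T-box motif TCACACCT also in 1, against 0.674% and 1.27%. The GATA motif AGATAA was in 4 (7.84%), against 4.71% and 11.2%. The CEBP motif, TTGC and CAA with any 2 bases between, was in 0, against 1.34% and 2.08%. These shares describe a small set that was chosen on accessibility, and no test was made of them.

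Some members lay in groups along a chromosome. Of the 1489, 808 had no other member within 100000 bp, 374 were in pairs and 307 (20.6%) lay in 84 stretches of 3 or more. The share in stretches followed the settings, at 33.2% with a ratio of 1.5, 13.3% with a minimum of 100, 13.1% when the local median was subtracted and 13.2% when members were chained within 50000 bp. The run with the most members was in Dlgap1, a gene of a postsynaptic scaffold protein. There 9 of the 10 regions between chr17:70043357 and 70194869 were members. One of them, chr17:70089245-70089822, gave 234, 260 and 197 in WT, 241, 210 and 212 in LD, 65, 29 and 55 in PTC1 and 43, 50 and 30 in PTC2. Non-member regions within 1000000 bp of these Dlgap1 sites had median log2 differences from WT between 0.18 and 0.23 in PTC1 and between -0.05 and 0.02 in PTC2. Of all 37 regions in the Dlgap1 body 10 were members.

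Cacna2d3 encodes an auxiliary subunit of voltage-gated calcium channels. A stretch of 8 members among 9 regions ran from chr14:29268651 to 29570889 inside the gene, and its start site formed a further member. The start site, chr14:29721727-29723639, gave 1297, 1243 and 1224 in WT, 1050, 929 and 861 in LD, 90, 90 and 83 in PTC1 and 323, 346 and 282 in PTC2. At chr14:29569912-29570889 the values were 736, 677 and 685 in WT, 439, 406 and 387 in LD, 35, 36 and 26 in PTC1 and 89, 87 and 76 in PTC2. Both of these Cacna2d3 sites showed 1 order, with WT above LD, LD above PTC2 and PTC2 above PTC1. The rule sets both premature stop lines below WT and LD, and other members of the stretch did not all share the rest of the order. Regions around the gene stayed near the wild-type level, with a median log2 difference of 0.15 in PTC1 and 0.23 in PTC2 at the start site.

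Members lay scattered among other regions in and around Pla2g4a and toward Ptgs2. These neighbouring genes encode cytosolic phospholipase A2, which releases arachidonic acid, and cyclooxygenase-2, which turns it into prostaglandins. Over this stretch 7 of 35 regions between chr1:149813683 and 150109799 were members. The member at chr1:149897190-149897797, inside Pla2g4a, gave 332, 318 and 320 in WT, 249, 240 and 214 in LD, 62, 61 and 78 in PTC1 and 52, 60 and 49 in PTC2. Another, chr1:150047398-150047658, lies 52503 bp from Ptgs2 and gave 211, 213 and 203 in WT, 252, 295 and 253 in LD, 55, 82 and 54 in PTC1 and 47, 73 and 46 in PTC2. The start sites themselves stayed open. The Ptgs2 start region, which is no member, gave 2568, 2515 and 2468 in WT, 1790, 1909 and 1905 in PTC1, 2609, 2626 and 2443 in PTC2 and 2470, 2301 and 2413 in LD. The Pla2g4a start region likewise kept 1143, 1105 and 1152 in PTC1 and 1721, 1667 and 1497 in PTC2, against 1578, 1567 and 1587 in WT. Both start regions, and the members in Rorb described next, were picked after their values were seen.

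**Figure D3:**
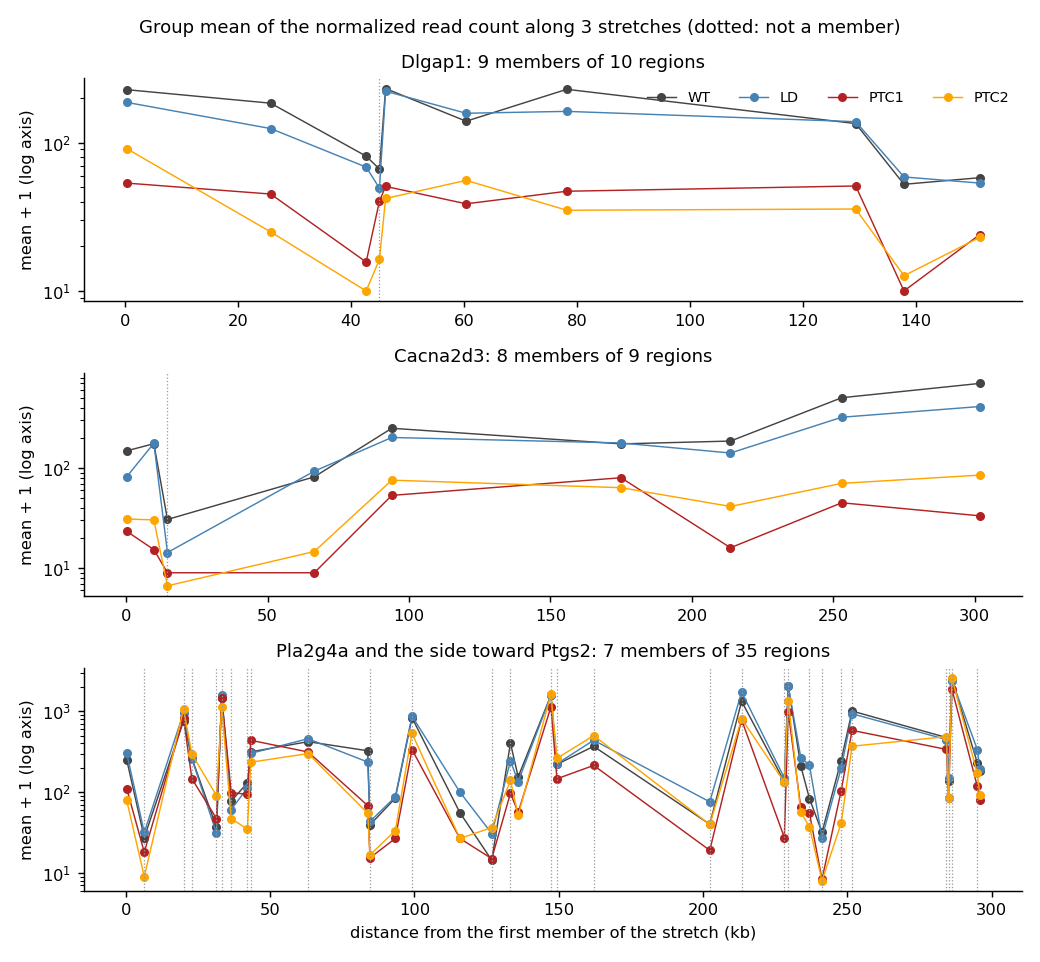
Group means of the normalized read count plus 1 (log axis) at each region along 3 stretches, by distance in kb from the first member, with dotted lines at regions that are no members. In Dlgap1 and Cacna2d3 the PTC1 and PTC2 lines run below WT and LD at nearly every region. In and around Pla2g4a and toward Ptgs2 the 7 members lie among 28 regions that are not.

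Rorb, the gene of a retinoid-related orphan receptor, had 3 members among 3 regions in its body. The main one, chr19:18941316-18942111, gave 854, 813 and 837 in WT, 865, 820 and 794 in LD, 146, 152 and 144 in PTC1 and 110, 133 and 118 in PTC2. The log2 difference of LD from WT there was -0.02 (95% interval -0.21 to 0.18). Rarb, which encodes the retinoic acid receptor beta, held 9 members among 29 regions. Its start-site member, chr14:16818714-16819150, gave 218, 226 and 273 in WT, 98, 106 and 102 in LD, 21, 13 and 29 in PTC1 and 21, 44 and 31 in PTC2.

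On chromosome X a run of 7 members among 9 regions, from chrX:129537710 to 129685171, contained no RefSeq protein-coding gene and ended 64936 bp from Diaph2, which encodes a formin that nucleates actin filaments. The second region of that run, chrX:129546062-129546346, gave 94, 78 and 68 in WT, 99, 84 and 102 in LD, 9, 11 and 3 in PTC1 and 2, 3 and 7 in PTC2. Around it the other regions had a median log2 difference from WT of -1.58 in PTC2 and -0.40 in PTC1. The fifth run, on chromosome 16, held 6 members of 14 regions in Abcc5, an export pump of cyclic nucleotides, and at the start of Map6d1, a microtubule-associated protein gene. Abcc5 contributed a strong site, chr16:20371345-20372543, with 1475, 1304 and 1475 in WT, 1294, 1221 and 1497 in LD, 568, 544 and 490 in PTC1 and 655, 598 and 611 in PTC2.

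The matrix metalloproteinase cluster on chromosome 9 holds the genes of secreted enzymes that cut collagen and other matrix proteins. Between 7.1 and 7.7 Mb 8 of 25 regions were members, at Mmp13 (collagenase-3), at Mmp10 (stromelysin-2) and between Mmp13, Mmp12, Mmp10 and Mmp8. The Mmp13 promoter gave 470, 512 and 490 in WT, 509, 624 and 466 in LD, 135, 131 and 102 in PTC1 and 185, 199 and 177 in PTC2. The Mmp10 promoter gave 198, 189 and 180 in WT, 195, 173 and 202 in LD, 50, 18 and 21 in PTC1 and 47, 53 and 68 in PTC2. The WT and LD values overlapped at both promoters, and neither was called between them by limma (adjusted p = 0.469 and 0.987). In 8 of the 8 members the PTC1 mean was below the PTC2 mean, an order that 14 of the 17 other regions of the window shared. The medians of those 17 were 91.3 in WT, 124 in LD, 35 in PTC1 and 101.7 in PTC2. An upstream site of Mmp13, chr9:7258412-7258845, had the widest gap of the 8, with 42, 39 and 40 in PTC1 and 172, 213 and 186 in PTC2 (log2 difference -2.21, adjusted p = 9.06e-16).

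By chromosome the share of regions that were members ran from 0.590% on chromosome 15 and 0.730% on chromosome 7 to 3.04% on chromosome X and 3.49% (232 of 6656) on chromosome 2. Chromosomes 9 (2.99%), 16 (2.74%), 18 (2.65%) and 19 (2.59%) were among the others above the 1.82% of all regions. The median log2 difference from WT over all regions of chromosome 2 was -0.18 in PTC1, -0.18 in PTC2 and 0.13 in LD. It was also below 0 in both premature stop lines on chromosome X (-0.11 in PTC1 and -0.27 in PTC2), chromosome 18 (-0.45 and -0.28) and chromosome 19 (-0.13 and -0.05). In LD the median was lower still on chromosome X (-0.52) and chromosome 18 (-0.55), so those shifts were not particular to the premature stop lines. On chromosome 19 it was 0.07 in LD. On chromosomes 9 and 16 it was below 0 in PTC1 (-0.28 and -0.38) and not in PTC2 (0.05 and 0.11). On chromosome 15 it was 0.44 in PTC1 and 0.18 in PTC2. The part of these shifts in the member counts was not tested.

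**Figure D4:**
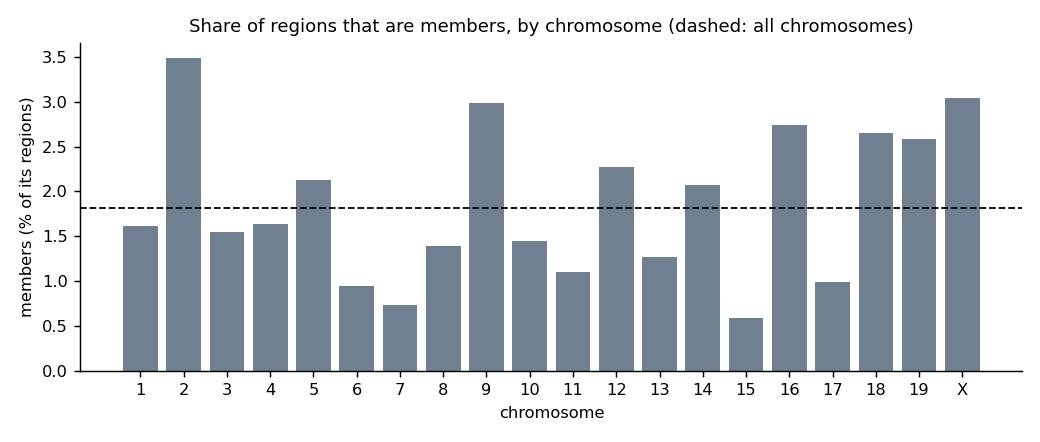
Members as a percent of all regions of each chromosome (bars from 0), with the share over all chromosomes dashed. Chromosome 2 stands highest at 3.49% and chromosome 15 lowest at 0.590%.

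Regions near the members were also lower in the premature stop lines, by less. There were 5505 regions that are no members and are centred within 50000 bp of a member. Against WT, limma called 2882 (52.4%) of them lower in PTC1 and 705 (12.8%) higher, where 31.2% and 30.6% of all tested regions were called lower and higher. In PTC2 2351 (42.7%) were lower and 908 (16.5%) higher, against 29.8% and 28.4% of all regions. In LD 1122 (20.4%) were lower and 1415 (25.7%) higher, against 24.7% and 22.6%. The median log2 difference of the neighbours was -0.37 in PTC1, where members had -1.81 and all regions 0.01. In PTC2 it was -0.21, where members had -1.71 and all regions 0.02, and in LD the 3 medians were 0.07, 0.10 and 0.01. The rule takes regions with low premature stop means out of this set, and the 3 comparisons share the WT libraries. Over a wider window the shift was smaller. The local median is the median log2 difference of the non-members within 1000000 bp. Its median over members was -0.21 in PTC1 and -0.09 in PTC2, against 0.01 and 0.05 over all regions. The local median was -0.5 or lower in both premature stop lines for 77 members (5.17%) and for 0.704% of all regions. When the local median was subtracted before the rule was applied, 1068 regions met it, 851 of them members.

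**Figure D5:**
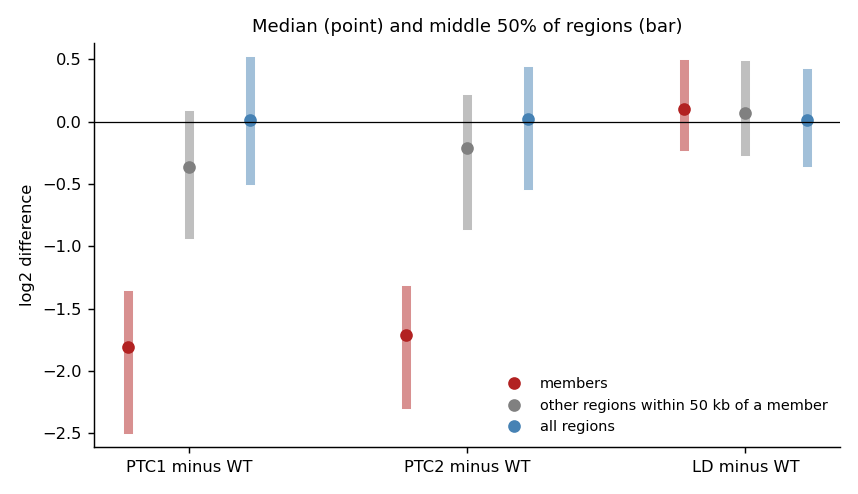
Median (point) and middle 50% (bar) of the log2 difference from WT in PTC1, PTC2 and LD for members, for other regions within 50 kb of a member and for all regions. Neighbours sit at -0.37 and -0.21 in the premature stop lines, between the members and all regions, and near 0 in LD.

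The start sites of the genes that hold members were also read. Of the 563 RefSeq genes with a member in the body, 362 had a region within 1000 bp of the listed start, and 42 of those regions were members themselves. Among the remaining 320, 174 (54.4%) were called lower in PTC1 and 48 (15%) higher, where 29.4% and 33.4% of the start regions of all listed genes were. In PTC2 72 (22.5%) were lower and 91 (28.4%) higher, against 14.2% and 38.8%. Their median log2 difference from WT was -0.20 in PTC1 and 0.03 in PTC2, against 0.02 and 0.11 at all start regions and -1.81 and -1.71 at the members.

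How far the premature stop lines differed from each other was tested, because the rule limits both means but does not set their order. All 1489 members passed the filter on low values. PTC1 was higher than PTC2 in 347 members (23.3%), where 31.6% of all regions were, and lower in 450 (30.2%), where 30.9% were. The other 692 were not called. Together the called members were 53.5%, below the 62.5% of all regions that were called between the premature stop lines. The ceiling that the rule puts on both means narrows this contrast in the members. A difference of 2-fold or more was called in 128 members with PTC1 higher (8.60%, against 16.1% of all regions) and in 219 with PTC1 lower (14.7%, against 11.5%). The largest excess in PTC1 was at a site without a listed gene, chr10:73089377-73090051, which lies 6563 bp from the protocadherin gene Pcdh15 and was chosen after its values were seen. It gave 71, 87 and 39 in PTC1 and 0, 7 and 7 in PTC2, against 251, 252 and 218 in WT and 148, 138 and 210 in LD (log2 difference 3.98, adjusted p = 4.44e-09). This value was 1.32 when the local median was subtracted and 2.35 with a pseudocount of 10.

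Among members listed with a named gene the largest excess in PTC1 was at the second Pcdh9 site, chr14:93889260-93889514, with 25, 21 and 27 in PTC1 and 2, 1 and 2 in PTC2 against 88, 65 and 93 in WT and 151, 154 and 143 in LD (log2 difference 3.27, adjusted p = 1.16e-11). It was 1.61 when the local median was subtracted and 1.55 with a pseudocount of 10. Kcnt2, a sodium-activated potassium channel gene, followed with 99, 104 and 89 in PTC1 and 12, 9 and 10 in PTC2, against 339, 337 and 283 in WT and 273, 294 and 312 in LD (log2 difference 3.12, adjusted p = 2.15e-16). Then came Trav6-7-dv9 (2.49) and the clustered protocadherin gene Pcdhb18 (2.12, or 1.24 without PTC2 replicate 3 and 1.36 with a pseudocount of 10).

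In the other direction the largest difference was again at a site without a listed gene, chr7:136606362-136607339, 287612 bp from Mgmt. It gave 5, 10 and 1 in PTC1 and 114, 129 and 107 in PTC2, against 380, 392 and 455 in WT and 380, 306 and 334 in LD (log2 difference -4.53, adjusted p = 1.71e-13). This site, too, was picked for its values. Of the members listed with a named gene, Spns2, which encodes the transporter that releases sphingosine-1-phosphate, gave 14, 17 and 18 in PTC1 and 105, 124 and 135 in PTC2, against 186, 333 and 220 in WT and 287, 290 and 291 in LD. Its log2 difference was -2.82 (adjusted p = 2.66e-14). Fam3b (-2.35, or -1.32 without PTC1 replicate 1 and -1.06 with a pseudocount of 10), Tox (-2.14), the gene of an HMG-box nuclear factor, and the Cacna2d3 start (-1.84) followed among the named genes. At Spns2 and Tox the premature stop lines were both below WT but lay nearer to it in PTC2. Tox gave 63, 62 and 93 in PTC1 and 326, 318 and 308 in PTC2, against 790, 712 and 700 in WT and 1657, 1334 and 1404 in LD.

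The deletion line was compared with WT in the same way, where the rule limits how far either mean can fall. LD was higher in 364 members (24.4%, against 22.6% of all regions) and lower in 168 (11.3%, against 24.7%), and 957 were not called. The lower count was 257 when only WT and LD were fitted. Members called above WT in LD by 2-fold or more numbered 96 (6.45%, against 6.9% of all regions), and those below 30 (2.01%, against 6.45%), where the rule itself limits the falls. Rftn1, the gene of a lipid raft protein, held the largest rise of all members, at chr17:50110510-50111439 in its body. That site gave 726, 655 and 710 in LD against 77, 69 and 97 in WT, 33, 12 and 16 in PTC1 and 5, 20 and 2 in PTC2 (log2 difference 3.10, adjusted p = 1.74e-07). Of the members listed with a named gene, another site in Rftn1 came first, with 786, 679 and 719 in LD against 189, 101 and 134 in WT, 50, 46 and 43 in PTC1 and 22, 19 and 28 in PTC2 (log2 difference 2.40, adjusted p = 1.08e-11). Stmn2, a regulator of microtubules in neurons, gave 449, 501 and 494 in LD and 110, 125 and 115 in WT (2.04, adjusted p = 4.77e-10). Prss12 (1.55), a serine protease gene, and Arhgef3 (1.48) were next among the named genes. At these genes the deletion line and the premature stop lines lay on opposite sides of WT, which the rule sets for any member with LD above WT.

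The rule keeps LD above the premature stop lines in every member. The largest fall from WT to LD was at chr5:39715339-39716549, 70352 bp from Hs3st1, a heparan sulfate sulfotransferase gene, and this site was chosen after its values were seen. It gave 315, 278 and 223 in WT, 57, 76 and 56 in LD, 6, 8 and 22 in PTC1 and 25, 20 and 9 in PTC2 (log2 difference -2.09, adjusted p = 7.35e-06). Of the members listed with a named gene, the largest falls were at Rarb (-1.21), Epha7 (-1.07), an upstream site of Gda (-1.01) and Kdm4d (-0.97), a histone demethylase gene. Epha7, an ephrin receptor of axon guidance, gave 598, 701 and 619 in WT, 342, 278 and 295 in LD, 64, 84 and 94 in PTC1 and 119, 66 and 93 in PTC2 (adjusted p = 2.72e-06). Its surroundings were lower in every mutant, with local medians of -1.40 in LD, -1.60 in PTC1 and -2.26 in PTC2, and the LD difference turned to 0.45 when that local level was subtracted.

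Gene lists were read by the number of listed genes with a region and with a member. Of all 12338 named genes with a region, 121 (0.981%) had a member. Cell adhesion and guidance had 3 genes with a member of 45 (Pcdh9, Pcdh7 and Epha7), with 6 of 79 regions. Ion channels had 3 of 26 (Kcnt2, Cacna2d3 and Kcnh1), and the interferon response had 1 of 23, Mx2. It belongs to a family of antiviral GTPase genes, and the deposited annotation lists it as a polymorphic pseudogene. The Mx2 region, chr16:97533843-97534074, gave 130, 147 and 108 in WT, 82, 94 and 91 in LD, 21, 12 and 24 in PTC1 and 35, 29 and 29 in PTC2, inside a stretch of 4 members with Fam3b. Kcnh1, a voltage-gated potassium channel gene, was a weak member with 48, 51 and 55 in WT, 54, 49 and 61 in LD, 8, 9 and 10 in PTC1 and 14, 20 and 20 in PTC2. No member was listed with any of the 17 measured genes of nonsense-mediated decay, the 25 of the actin family and contractile apparatus, the 40 of fibroblasts and matrix, the 54 developmental transcription factors or the 71 growth factor, TGF-beta, BMP and WNT genes. All these counts use the deposited gene listing, which covered 17.6% of members. By RefSeq gene body, members also lay in genes of the lists. Dkk2 (3 members) and Nrg1 (3) are of the growth factor and WNT list. Adgrl3 (6), Opcml (3) and Sema3e (3) are of the adhesion list, and Kcnh7 (4) is of the channel list. These lists were drawn up with earlier results of the same data known, so the counts are a description. At 0.981%, even 71 genes would hold fewer than 1 with a member.

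Mga was the single gene listed with a member among the 22 measured genes of the MYC-MAX network and PRC1.6. At the start regions of the other 21, PTC1 was higher than WT in 7 and lower in 6, PTC2 was higher in 12 and lower in 0, and LD was higher in 5 and lower in 10, a balance that turned to 9 and 4 with loess normalization. At the start regions of all listed genes the shares called higher and lower were 33.4% and 29.4% in PTC1, 38.8% and 14.2% in PTC2 and 15.8% and 31.2% in LD. Myc itself had means of 2393 in PTC1 and 2366 in PTC2, above 1956 in WT and 1646 in LD. E2f6, the DNA-binding E2F subunit of the same Polycomb complex, went opposite ways in the premature stop lines, with means of 87.7 in PTC1 and 690.7 in PTC2 against 243 in WT and 402 in LD. Max, the partner of MGA, had 2296 in WT, 1818 in PTC1 and 2639 in PTC2, so no other gene of the list shared the pattern of Mga.

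Normalized read counts summed to 31.29 to 34.8 M (mega) per library. Reads in regions were estimated from the gaps and doublings in the rounded values of each library. The estimates were 35.81 to 44.98 M in PTC2, above every library of WT (30.35 to 32.91 M), PTC1 (30.32 to 35.14 M) and LD (25.02 to 33.33 M). The lowest PTC2 estimate had the weakest fit (r 0.59, against 0.76 to 0.98 in the other libraries), so its rank above PTC1 is uncertain. The part of this depth in the member set was not tested. Pearson's r across regions was 0.982 to 0.987 within groups and 0.817 to 0.933 between groups. The 8 measured fibroblast markers had regions open in every group, with a summed level of 8256 to 8731 in PTC1, 9358 to 9619 in WT, 9602 to 10411 in LD and 10448 to 11265 in PTC2. Their median was lowest in PTC1, at 810.3, against 1206 (WT), 1111 (LD) and 1287 (PTC2). Col1a1 had means of 1520 in WT and 1626 in PTC1, and Pdgfrb 1576 and 1027. No member was listed with a marker of fibroblasts, muscle, adipocytes, epithelium, endothelium, blood or neural cells. The summed level of the 4 measured neural markers was 2185 to 2358 in PTC1 and 818 to 1156 in the other groups, and that of the 3 muscle markers 286 to 345 against 79 to 131. The part of these differences in the member set was not tested.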

How the data were processed

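Per the labels' protocols, 25000 NIH/3T3 cells per library were lysed and transposed for 30 min at 37 °C and sequenced with paired ends. Per the submitters' processing notes, build mm10 was used, and the tools named are DESeq2 1.30.1, Picard 2.25.5, STAR 2.7.10a and Trimmomatic 0.39. Which caller found the peaks, and whether cuts were shifted, is not given in the sources. The deposited table gives a score per region and library, by its values a read count scaled by 1 factor per library and rounded by the authors, called normalized read count here. It also lists, per the file headers, a gene, the distance in bp to its start site and the fraction of the region inside that gene. Coordinates are printed as deposited, and whether the first base counts as 0 or 1 is unknown.

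Members and gene lists were chosen with earlier results of these data known. Group means were compared by the rule. Because the values are scaled, the planned count test was replaced with limma 3.58.1 (R 4.3.3) on log2(value + 1), with a mean per group over 12 libraries, empirical Bayes with a trend and Benjamini-Hochberg adjustment. Regions averaging at least 5 were fitted (81985 of 81995), and an adjusted p under 0.05 was called. Log2 differences include the pseudocount of 1, which can understate changes of low regions. They average the log2 values of the libraries, so 1 library near 0 can also enlarge them. Leaving out such a library made the differences at Mga, Pcdhb18 and Fam3b smaller. A value of 50 stands for about 40 to 67 estimated reads. The fit was also run on simulated counts, with the same spread setting in every region and changes set in few regions. The values here are scaled and differ between lines at many regions, so that run does not measure false calls in these data. The named genes were the 15 highest ratios, on means plus 1, with a proper symbol and separated groups, 1 per gene and per 100000 bp. To these were added the 6 strongest members, up to 12 at start sites and the 5 stretches with the most members. Also added were 4 per direction of each test, up to 4 per list and 3 on each side of the threshold. Others are said to be chosen after their values were seen, and 1 gene with members is not reported here. Motifs were read in RefSeq promoter windows of build GRCm38.p6 in place of the planned 300 bases at region centres, because no genome sequence was used here.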

Additional observations from a re-analysis of the deposited data

Results flagged for a closer look

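The 2 premature stop lines, which the rule treats as 1 pair, differed from each other at 797 of the 1489 members by limma (347 higher in PTC1 and 450 higher in PTC2). This share of 53.5% is below the 62.5% of all tested regions called between these lines. The rule puts a ceiling on both premature stop means and so narrows this contrast in the members. This was a test of the difference itself. Groups of 3 libraries are too small for a check of single libraries that stand apart.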

How the results depend on the processing

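The number of members followed the threshold and the scaling. It was 3595 at a ratio of 1.5, 467 at a ratio of 3 and 955 with a minimum of 100, and 1068 after local centring, which subtracts the median of the 1000000 bp around a region, with 851 of the 1489 shared. The share of members in stretches, 20.6%, was 33.2% at a ratio of 1.5, 17.3% at a ratio of 3, 28% with a minimum of 20, 13.3% with a minimum of 100, 13.1% after local centring and 13.2% when members were chained within 50000 bp. Without each library in turn there were 1467 to 1542 members, 95.2% to 97.3% of the 1489 were kept, 17.3% to 17.9% had a listed gene and 20.1% to 20.8% lay in stretches.

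The share with a listed gene stayed within its 95% binomial interval under every setting run. Counts called between PTC1 and PTC2 and the 6 counts at neighbours stayed within 1.5 times the reported ones under every setting run. Members lower in LD than WT were 257 when only those 2 groups were fitted. Leaving out 1 library gave 320 to 367 members higher and 419 to 449 lower in PTC1 than PTC2, and 283 to 381 higher and 133 to 178 lower in LD than WT. It gave 11.0% to 13.0% of neighbours higher and 49.2% to 52.7% lower in PTC1, 14.3% to 16.7% higher and 40% to 43.2% lower in PTC2, and 21.7% to 26.4% higher and 17.8% to 20.9% lower in LD. In the MYC-MAX and PRC1.6 list, LD was higher at 3 genes with scaling to the same median or local centring and at 9 with loess, and lower at 4 with loess. With local centring PTC1 was higher at 2, and PTC2 was lower at 2 and with loess at 1. Without 1 library LD was higher at 3 to 5 and lower at 8 to 10, PTC1 higher at 5 to 7 and lower at 4 to 8, and PTC2 higher at 10 to 12 and lower at 0. LD was higher at 3 both without WT replicate 1 and without LD replicate 3. The LD difference at Epha7 reversed to 0.45 with local centring. The cause of these changes was not tested.

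Same-numbered libraries deviated together only weakly (correlations 0.000616 to 0.036 in 12 pairs), so replicate numbers were not taken as pairs. With the number as a replicate block, 349 members were higher and 453 lower in PTC1 than PTC2, and 369 higher and 169 lower in LD than WT. In 9 of 12 cases a library correlated best with its own number. At an estimated 25.02 to 44.98 M (mega) reads per library, levels near 0 in the premature stop lines rest on few reads.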
